A study of Mus musculus with 67 samples.

Results

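Regulatory T cells (Tregs) from the hypothalamus were compared with Tregs from the remaining brain (rest brain) of mice of the same strains and diets. The libraries were chosen by their labels, as all Treg libraries of the second RNA-sequencing experiment of the study: 16 hypothalamic and 14 rest brain libraries, which make up 30 of the 59 libraries of that experiment and 30 of the 67 samples of the series.

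The study addresses how calorie-rich feeding affects CD4 T cells that live in the brain, and the hypothalamus in particular. In its second experiment, Tregs and activated conventional T cells (activated Tconv) were sorted from both tissues, and rest brain means brain from which the hypothalamus, the olfactory bulbs and the cerebellum had been taken away. Mice were Balb/c or C57Bl/6J (BalbC and BL6 in the labels) and ate a standard diet (SD in the labels) or a high-fat, high-sugar (HFHS) diet (HFD in the labels). Each label also carries a pair of numbers, such as 11_15, by which a library is named here. In hypothalamus there were 4 Treg libraries for each strain and diet, and in rest brain 4 for each except Balb/c on standard diet, with 2. According to the methods, Balb/c mice were female and C57Bl/6J mice male, so strain and sex cannot be told apart, and HFHS feeding began at 6 weeks of age. The age at sampling in this experiment was not given in the sources used here. The methods of the repeat describe the sort of conventional cells only (CD25 and Foxp3GFP negative, CD44 high, CD62L low, pooled from 5 mice a sample). Elsewhere in the study Tregs are sorted as CD4, CD25 and Foxp3GFP positive cells of reporter mice, in which green fluorescent protein marks Foxp3, with markers of CD8 T cells, myeloid cells and B cells used to gate such cells out. Where pools are not known to be of separate mice, p-values measure the spread between these libraries only.

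Tregs are CD4 T cells that restrain other immune cells. The transcription factor Foxp3 maintains their identity, and they carry the high-affinity interleukin-2 receptor chain CD25, encoded by Il2ra, and the inhibitory receptor CTLA-4. Tregs in non-lymphoid tissues take on effector features, among them the cytokine Il10, the chemokine receptor Ccr8 and the interleukin-33 receptor Il1rl1. Brain Tregs are few, and they are known to temper microglia, the resident macrophages of the brain. The opioid precursor gene Penk is known from Tregs as well as from neurons.

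Hypothalamic Treg libraries held far fewer different transcripts than rest brain Treg libraries, although they were sequenced to a similar depth. A gene is called detected where a library had more than 10 counts of it, the limit the study used. The total per library ranged from 1724149 to 38482277 counts in hypothalamic Tregs, with a median of 15027196, and from 8938477 to 24985589 in rest brain Tregs, with a median of 17377168.5. Genes detected ranged from 2108 to 9894 in hypothalamic Tregs, with a median of 4476, and from 5433 to 9610 in rest brain Tregs, with a median of 8802.5. The ranges overlapped, but 11 of the 16 hypothalamic libraries lay below every rest brain library. The means were 4782 ± 2007 (SD, n = 16) and 8357 ± 1309 (SD, n = 14), a difference of -3574.5 genes (two-sided permutation test within strain and diet, 100000 resamples, p = 7e-05). With all libraries thinned to 1724149 counts, the difference between the 16 and 14 libraries was -3030.9 genes (same permutation test, p = 8e-05). In a bulk library, fewer sorted cells and less RNA per cell cannot be told apart, and the number of cells per library was not given in the sources used here.

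The lower number was seen in both strains and on both diets. Median genes detected in hypothalamic Tregs were 3459.5 (Balb/c, standard diet), 5391.5 (Balb/c, HFHS diet), 5086.5 (C57Bl/6J, standard diet) and 3910 (C57Bl/6J, HFHS diet). The rest brain medians of those groups were 8371, 9374.5, 6510.5 and 8823.5. Activated Tconv of the same experiment, which come from the same tissues, had 9004 to 10126 genes in hypothalamus (median 9593, n = 16) and 10235 to 11512 in rest brain (median 10767, n = 13).

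**Figure D1:**
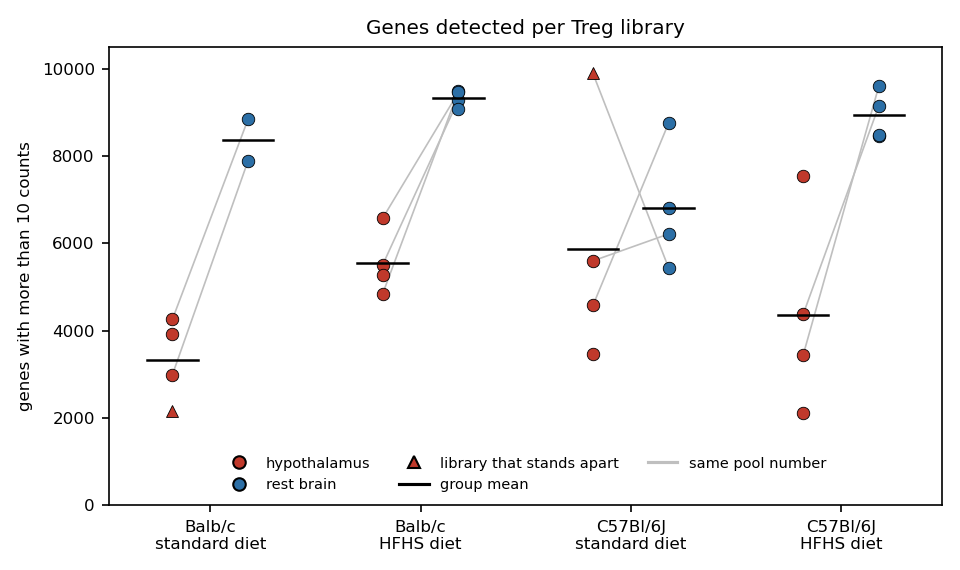
Genes with more than 10 counts in each Treg library (points), by strain and diet, in hypothalamus (red) and rest brain (blue), with group means (black bars) and grey lines between libraries that carry the same numbers. Triangles mark hypothalamic libraries 11_15 (C57Bl/6J, standard diet, 9894 genes) and 32_36 (Balb/c, standard diet, 2152 genes), and 11 of the 16 hypothalamic points lie below every rest brain point.

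Each hypothalamic library held a different selection of genes. Combined, the 16 hypothalamic libraries detected 12981 genes and the 14 rest brain libraries 13140. However, 413 genes were detected in every hypothalamic library, against 3076 in every rest brain library. Of the genes detected in either of 2 libraries of the same strain, diet and tissue, the share detected in both ranged from 24.1% to 56.3% in hypothalamus (median 37.97%, 24 pairs) and from 53.5% to 79.8% in rest brain (median 72.5%, 19 pairs). Across genes, which are not independent replicates, Spearman correlations within such pairs had a median of 0.136 in hypothalamus and 0.693 in rest brain. No pair within a group was alike, since at least 5660 genes differed in count in each of the 43 pairs.

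Some hypothalamic libraries stood apart in which cells their transcripts came from. Many results are therefore given with and without hypothalamic libraries 11_15 (C57Bl/6J, standard diet) and 32_36 (Balb/c, standard diet). Where a single value is given, it is over all libraries. In library 11_15, the 16 T cell genes of a fixed list summed to 248 CPM (counts relative to the total of the library), against 8790 to 17811 CPM in the 14 hypothalamic libraries other than these, and the leading genes were Malat1, Bsg, Tmsb4x, B2m and Ly6c1. Its 9 endothelial genes summed to 11439 CPM, with the tight junction gene Cldn5 at 2122 CPM, and its mural cell and fibroblast genes to 3122 CPM. This library had the most genes of all hypothalamic libraries, and Foxp3 was at 1.19 CPM, Il2ra at 0, Cd3e at 37.9 and the leukocyte gene Ptprc at 8.92 CPM, so its content went against its label. The leading genes of library 32_36 included Cst3, Tmsb4x, B2m and Ctss, its 15 microglia genes summed to 32302 CPM with P2ry12 at 4866 CPM, and Foxp3 and Il2ra were each at 0.0977 CPM. In that library Cd3e, at 1532 CPM, was within the range of the other hypothalamic libraries, and Ctla4, at 1570 CPM, was the highest of the 16. Without these 2 libraries, the mean number of genes in hypothalamic Tregs was 4605 ± 1439 (SD, n = 14), the difference from rest brain was -3751.8 genes, and the permutation p was 1e-05, the smallest 100000 resamples can give. Between pairs of the 14 libraries kept, the shared part had a median of 40.6% (18 pairs).

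Apart from single libraries, transcripts of other cell types were low in both tissues. Microglia genes summed to a median of 317 CPM in hypothalamic Tregs (lowest 0.0567, highest 32302) and 252 CPM in rest brain Tregs (lowest 116, highest 547). With the 2 libraries left out, the hypothalamic median was 287 CPM and the highest value 1785 CPM, in library 67_71 (C57Bl/6J, standard diet). The microglial receptor gene P2ry12 was detected in 3 of 16 hypothalamic and 2 of 14 rest brain libraries and was at 0 in the median library of both. Macrophage and monocyte genes had medians of 0.320 CPM and 1.07 CPM, with the most abundant member, Lyz2, detected in 2 hypothalamic libraries and 1 rest brain library. Genes of dendritic cells and MHC class II had medians of 147 CPM and 224 CPM, led by Cd74. In hypothalamic library 43_47 (C57Bl/6J, standard diet), which had the lowest total, these genes summed to 5752 CPM, B cell genes to 1476 CPM, erythroid genes to 1429 CPM and neutrophil genes to 545 CPM. Over all libraries the last 3 lists had medians from 0 to 19.3 CPM, led by Cd79b, Hba-a2 and Cxcr2, and CD8 T and NK cell genes, led by Cd8b1, had medians of 0.0948 and 21.5 CPM.

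Genes of brain tissue cells were also low. Endothelial genes had medians of 86.7 CPM in hypothalamus and 95.3 CPM in rest brain, with Cldn5 at 0 in the median library of both. Mural cell and fibroblast genes, led by Vtn, had medians of 0.350 and 0.475 CPM but spread further up in hypothalamus. Besides the 2 libraries, hypothalamic libraries 67_71 (440.0 CPM), 43_47 (351 CPM), 37_41 (130.2 CPM) and 11_14 (44.6 CPM) lay above the highest rest brain library, at 6.32 CPM. Astrocyte genes, led by Aldoc, had medians of 0.0957 and 13.2 CPM. The oligodendrocyte list had medians of 404 and 412 CPM, carried by Cnp (medians 272 and 314 CPM), which activated Tconv libraries also held at medians of 243 and 164 CPM. Neuron genes, led by the non-coding RNA Meg3, had medians of 0.326 and 4.96 CPM and were highest in rest brain library 15_21 (Balb/c, HFHS diet), at 1238 CPM. Genes of hypothalamic neurons and tanycytes had medians of 0 and 0.909 CPM, with Gnrh1 the most abundant at 81.6 CPM in its highest library, and choroid plexus genes, led by Ttr, had medians of 0 in both tissues. The list of forebrain neurons had medians of 44.0 and 92.6 CPM, carried by Bcl11b, a gene that T cells also express. Genes of the Y chromosome were detected in 16 of 16 C57Bl/6J and 0 of 14 Balb/c Treg libraries, as the sexes of the strains require. The part that cells other than Tregs have in the tissue differences below was not tested beyond leaving out the libraries named.

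The genes that define the sort were present in all rest brain Treg libraries and in most hypothalamic ones. Foxp3 (chrX:7579676-7595243, GRCm38) ranged from 0.0977 to 862 CPM in hypothalamic Tregs (median 206) and from 241 to 767 CPM in rest brain Tregs (median 385). In activated Tconv the range was 0 to 13.8 CPM. All 14 rest brain libraries and 12 hypothalamic libraries lay above that range, and 4 hypothalamic libraries lay within it: 11_15 and 32_36, then 43_47 (C57Bl/6J, standard diet) at 3.48 CPM and 06_10 (C57Bl/6J, HFHS diet) at 0.429 CPM. In library 43_47, Il2ra was at 757 CPM and in library 06_10 at 666 CPM, above the highest rest brain library. Il2ra ranged from 0 to 757 CPM in hypothalamus (median 301) and from 134 to 617 CPM in rest brain (median 379), and in the 4 hypothalamic libraries from Balb/c mice on standard diet it was at 18.3 CPM or lower.

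Ctla4 ranged from 6.89 to 1570 CPM in hypothalamus (median 431) and from 598 to 1774 CPM in rest brain (median 1001). The T cell receptor chain gene Cd3e had medians of 1808 and 2395 CPM, Cd4 of 199.5 and 220 CPM, and Ikzf2, which encodes the Treg transcription factor Helios, of 264 and 456 CPM. In edgeR's quasi-likelihood test with strain and diet as terms, none of these 6 genes passed. The log2 fold changes, hypothalamus over rest brain, were -0.81 (SE 0.67) for Foxp3, -0.80 (SE 0.42) for Ctla4, -0.55 (SE 0.89) for Il2ra, -0.50 for Cd3e, -0.14 for Ikzf2 and -0.13 for Cd4, each with an adjusted p of 1. The tools differed here: limma-voom with quality weights called Foxp3 (-2.22, adjusted p = 0.0151), Ctla4 (-1.13, adjusted p = 0.0326) and Cd3e (-0.54, adjusted p = 0.048) lower in hypothalamus, in a fit where the median log2 fold change of all 7247 genes was -2.79, below those of the genes named. With DESeq2's size factors, by contrast, all 6 signs turned positive. That scaling moved the median log2 fold change of all genes from -0.30 to 0.45. The whole T cell list had a median log2 fold change of -0.17 and the 20 genes found of the Treg identity list one of -0.44, beside -0.30 for all genes.

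**Figure D2:**
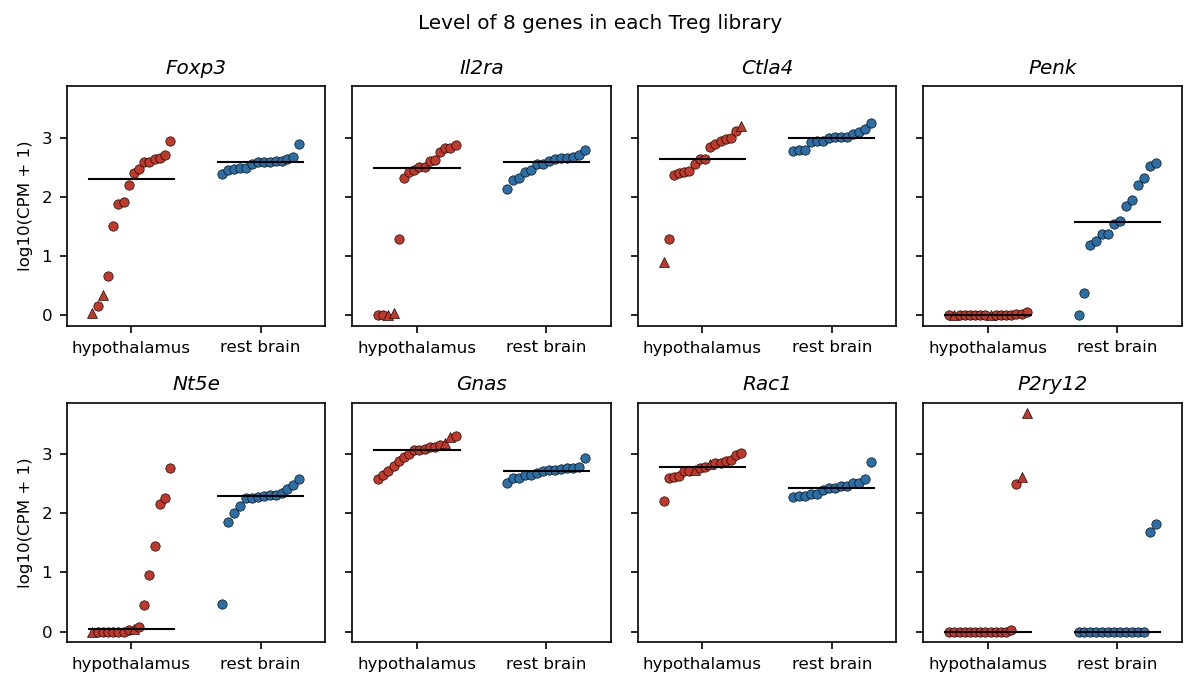
Level of 8 genes in each Treg library, as log10(CPM + 1), in hypothalamus (red) and rest brain (blue), with the median as a black line and triangles for hypothalamic libraries 11_15 and 32_36. Foxp3, Il2ra and Nt5e spread down to 0 or close to it in hypothalamus and are at 1.97 CPM or higher in rest brain, Penk is at 0.119 CPM or lower in all 16 hypothalamic libraries, and Gnas and Rac1 are counted in all 30.

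Because many genes were not detected in some hypothalamic libraries rather than lower in all of them, detection was compared gene by gene. Of 10502 genes detected in 3 to 27 of the 30 libraries, 2969 (28.3%) were detected in a smaller share of hypothalamic than of rest brain libraries (two-sided Fisher's exact test, Benjamini-Hochberg adjusted p below 0.05). A single gene (0.00952%) was detected more often in hypothalamus: the predicted gene Gm4832, in 8 of 16 against 0 of 14 libraries (adjusted p = 0.019, chosen after its values were seen), at 1.31 CPM or lower. It had 1 to 10 counts in each rest brain library, so this call rests on the limit of 10 counts. With at least 1 count, and with more than 50 counts, 0 genes were detected more often in hypothalamus. In the 28 libraries kept, 1961 of 9958 genes (19.7%) were less often and 1 (0.0100%) more often detected. With counts thinned to 1724149 a library, the numbers were 2164 and 1 of 9527. At that depth Gm4832 does not reach the limit, so the 1 is another gene, not named here. Leaving out each library in turn gave 2163 to 3801 genes. Since hypothalamic libraries held fewer genes in general, the share of 28.3% of all genes tested is given as the measure beside which each gene group is read, and no test compared the groups with it.

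The gene with the smallest p-value was Penk (chr4:4133536-4138815, GRCm38), which encodes proenkephalin and belongs to the list of effector Treg genes. Penk was detected in 0 of 16 hypothalamic and 13 of 14 rest brain Treg libraries (adjusted p = 0.00123, and 0.00149 without the 2 libraries). In rest brain it ranged from 0 to 372 CPM with a median of 36.1 CPM, and all 16 hypothalamic libraries together had 3 counts, with 13 libraries at 0. Of the 1582 genes detected in 13 of 14 rest brain libraries, the median gene was detected in 8 hypothalamic libraries, and Penk was the 1 gene detected in none, whereas without the 2 libraries there were 4 such genes. The highest rest brain values, 372 and 327 CPM, were in libraries 16_20 and 26_31 (Balb/c, HFHS diet), where the neuron genes summed to 5.69 and 19.6 CPM. Genes of striatal neurons, which also express Penk, were looked at after its values were seen. Drd2 was at 0 in all 30 Treg libraries, and Drd1 and Ppp1r1b did not pass 1.05 CPM in rest brain. In hypothalamic library 33_37 (C57Bl/6J, HFHS diet) Drd1 had 162 counts. Whether neurons gave part of the rest brain Penk was not tested. In activated Tconv, Penk was detected in 9 of 16 hypothalamic and 10 of 13 rest brain libraries, with medians of 3.74 and 9.00 CPM, and the tissue effect there did not pass (log2 fold change -2.01, adjusted p = 0.217). The tissue effect differed between the cell types (edgeR interaction, adjusted p = 4.1e-05, and 2.2e-05 without the 2 libraries), and since the gene was near 0 in hypothalamic Tregs, no size is given. Others of that kind, chosen after their values were seen, were Coil, in 0 of 16 and 12 of 14 libraries, and Adam8 and Mettl22, each in 0 of 16 and 11 of 14.

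Of the Treg identity genes, 2 of 12 tested were less often detected in hypothalamus, and 8 others were detected in more than 27 libraries and could not be tested. Nt5e, which encodes CD73, an enzyme that makes adenosine, was detected in 6 of 16 hypothalamic and 14 of 14 rest brain libraries (adjusted p = 0.00827). Its level ranged from 0 to 581 CPM in hypothalamus, with a median of 0.0961, and from 1.97 to 378 CPM in rest brain, with a median of 191. Most hypothalamic libraries thus held next to no Nt5e, and 1 of 16, library 62_66 (C57Bl/6J, standard diet), had more than any rest brain library. Ikzf4, which encodes the transcription factor Eos, was detected in 4 and 11 libraries (adjusted p = 0.0387). With those 2 left out, 1 of 8 identity genes passed, Nt5e (adjusted p = 0.0186). None of the 5 testable T cell genes passed, and 11 of the 16 were detected in more than 27 libraries.

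Of the effector genes of tissue Tregs 8 of 18 tested (44.4%) were less often detected, and 5 of 16 without the 2 libraries. Besides Penk these were Il10, Ccr8, Il1rl1, Nfil3, Klrg1, Ebi3 and Gzmb. Il10 was detected in 1 of 16 hypothalamic and 9 of 14 rest brain libraries (adjusted p = 0.0149), with medians of 0 and 35.6 CPM. Ccr8, a receptor typical of tissue Tregs, was detected in 6 and 14 libraries (adjusted p = 0.00827), and Il1rl1 in 7 and 14 (adjusted p = 0.0122). The levels of both spread widely in hypothalamus, from 0 to 650 CPM for Ccr8 and from 0 to 1521 CPM for Il1rl1, against 23.8 to 330 and 2.72 to 205 CPM in rest brain. Nfil3 was detected in 4 and 12 libraries. Klrg1 (8 and 14), Ebi3 (9 and 14) and Gzmb (1 and 8) passed with all libraries but not without the 2, with adjusted p of 0.0604, 0.0604 and 0.0557.

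Among receptors for chemokines, 4 of 15 genes were less often detected: Ccr8, Ccr7, which guides T cells to lymph nodes (6 of 16 and 14 of 14), Ccr3 (1 and 9) and Ccr4 (6 and 13). Without the 2 libraries 4 of 12 receptors passed, Ccr8, Ccr7 and Ccr3 among them, whereas Ccr4 did not (adjusted p = 0.0557). Ccr7 was also the 1 of 10 genes that passed in the list of naive and egress genes. Of the adhesion genes and integrins 5 of 13 passed, and 1 of 13 without the 2 libraries: Pecam1, in 6 of 16 and 14 of 14 libraries (adjusted p = 0.00827). Itgb8, an integrin chain by which Tregs activate TGF-beta, was detected in 5 of 16 and 12 of 14 Treg libraries (adjusted p = 0.0248, and 0.0619 without the 2 libraries) and in 1 of 29 activated Tconv libraries. The adhesion gene Cd44 (9 and 14) was the 1 of 10 residency genes that passed, and it did not pass without the 2 libraries (adjusted p = 0.101), nor did Itga6 (7 and 13) and Itgb3 (4 and 11).

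Of the cytokines 4 of 12 passed, and 2 of 12 without the 2 libraries: Il10 and Tnfsf11, which encodes RANKL (2 of 16 and 10 of 14). Tnfsf8 and Osm passed with all libraries only. Of the Th1 and cytotoxic genes 2 of 15 passed, Gzmb and the interleukin-12 receptor chain gene Il12rb1 (5 and 13), and 1 of 13 did without the 2 libraries, Il12rb1. The checkpoint receptor Lag3 was 1 of 11 that passed (1 and 9 libraries), and 1 of 10 without the 2 libraries. Of the interferon-stimulated genes Oasl1 (0 and 6), Usp18 (9 and 14) and Rtp4 (9 and 14) passed, 3 of 18, and 0 of 18 did without the 2 libraries. Interferon-stimulated genes summed to a median of 5517 CPM in hypothalamus (4399 CPM without the 2 libraries) and 4005 CPM in rest brain, with the highest value, 25635 CPM, in hypothalamic library 42_46 (Balb/c, standard diet).

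Metabolic genes were taken in several lists. Of the 19 testable genes of fatty acid and cholesterol metabolism 10 (52.6%) were less often detected in hypothalamus, and 7 of 19 without the 2 libraries. Mitochondrial fatty acid import was represented by Cpt1a (2 of 16 and 11 of 14, adjusted p = 0.0122) and Cpt2 (2 and 9, adjusted p = 0.0338), and fatty acid oxidation by Acadvl (7 and 14). Fatty acid synthesis was represented by Fasn (4 and 12) and Elovl6 (2 and 10). Acadm, Hadha and Hmgcs1 passed with all libraries only. In activated Tconv 0 of 19 genes of this list passed edgeR's test of tissue, beside 1251 of all 10281 genes (12.2%). The difference between the cell types passed for 0 of 19 as well, beside 436 of all 10845 genes (4.02%). Of 21 genes of mTOR and nutrient sensing 6 passed, and 2 of 19 without the 2 libraries: the kinase genes Mtor (3 of 16 and 11 of 14, adjusted p = 0.019) and Akt1 (8 and 14, adjusted p = 0.019). Rptor, Stk11, Sesn1 and Foxo3 passed with all libraries only. The glucose transporter gene Slc2a1 was the 1 of 10 testable glycolysis genes that passed (2 of 16 and 12 of 14, adjusted p = 0.00726), and it did so without the 2 libraries (adjusted p = 0.00665).

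Slc2a1 was highest, at 1094.5 CPM, in hypothalamic library 11_15, the one rich in endothelial transcripts, and reached 173 CPM in its highest rest brain library. None of the 5 testable respiratory chain genes passed, and 17 of 22 were detected in more than 27 libraries, as were all 30 genes of the cytosolic ribosome and 15 of 16 nuclear and broadly expressed RNAs, of which 0 of 1 tested passed. Receptors for hormones and neurotransmitters had 4 of 14 genes less often detected, and 3 of 13 without the 2 libraries. Those that passed in both included the adenosine receptor gene Adora2a (1 of 16 and 10 of 14, adjusted p = 0.00987), the ATP-gated channel gene P2rx4 (6 and 13) and Igf1r (6 and 13). The leptin receptor gene Lepr, chosen after its values were seen, was detected in 1 of 16 hypothalamic libraries, 11_15, and in 0 of 14 rest brain libraries. Of the cell cycle genes 4 of 24 passed, and 3 of 23 without the 2 libraries: Mcm2 (3 and 11), Tyms (5 and 12) and Tk1 (2 and 10), with Mki67 (3 and 10) passing with all libraries only. Egr1 (8 of 16 and 14 of 14, adjusted p = 0.019) was 1 of 16 testable early response genes that passed, and 1 of 13 without the 2 libraries.

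Among lists of other cells, Meg3 (4 of 16 and 12 of 14, 1 of 6 neuron genes tested) and Cd8b1 (5 and 11, 1 of 2 CD8 T and NK cell genes) were less often detected in hypothalamus. Meg3 still passed without the 2 libraries, and Cd8b1 did not (adjusted p = 0.119). Of the microglia list 0 of 12 testable genes passed, of macrophages 0 of 5, of dendritic cells and MHC class II 0 of 6, of B cells 0 of 4, of astrocytes 0 of 4, of endothelial cells 0 of 2 and of mural cells 0 of 1. Likewise 0 of 3 erythroid, 0 of 3 hypothalamic neuron, 0 of 2 forebrain neuron and 0 of 6 sex-linked genes passed, and no neutrophil or choroid plexus gene could be tested. Calls of Cd8b1, Osm, Tnfsf8, Hmgcs1 and Stk11 were each lost in 22 of the 30 fits that left out a library and that of Rptor in 19. Those of Itga6 and Cpt2 were lost in 9, of Acadm in 8, of Ebi3, Hadha, Usp18, Rtp4 and Sesn1 in 7 and of Cd44 in 6. The calls of the other list genes named here as passing held in every such fit. Other settings cost more of the single-gene calls examined. With at least 1 count 28 were lost and 27 kept, with more than 50 counts 13 and 42, and with thinned counts 19 and 35. Without the 2 libraries 24 were lost and 32 kept. Leaving out the 4 hypothalamic libraries with Foxp3 in the range of activated Tconv lost 30 and kept 26. An exact sign test over the 10 number pairs found in both tissues lost all 56, though so few pairs leave it little power.

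**Figure D3:**
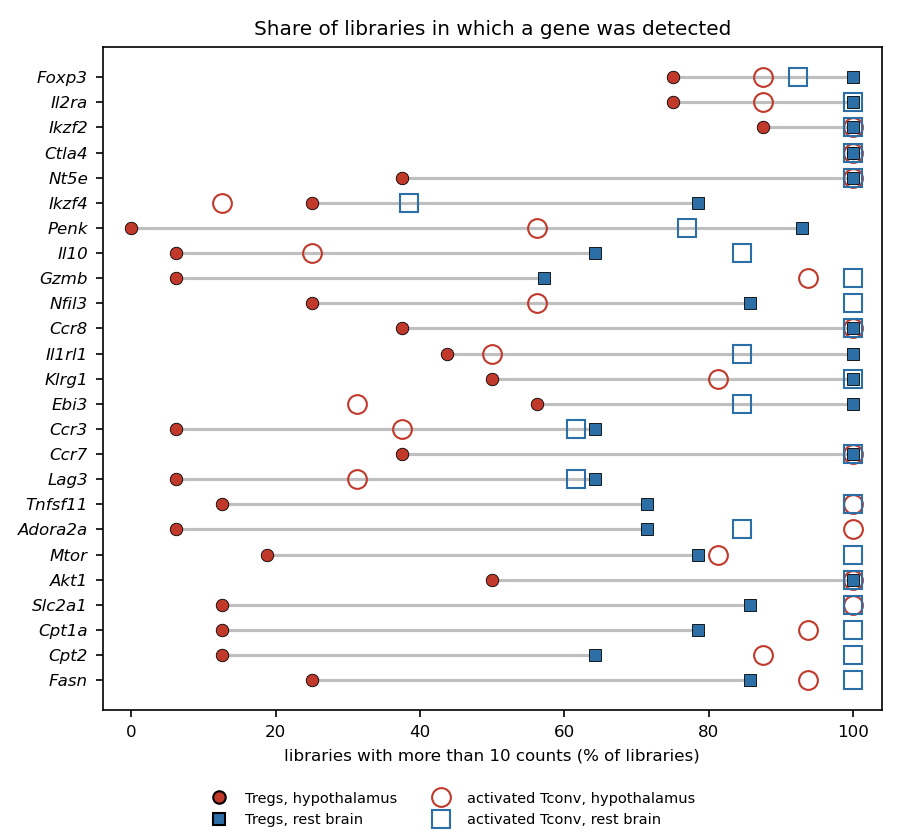
Share of libraries with more than 10 counts (x axis, percent) for 25 genes, in hypothalamic (circles, red) and rest brain (squares, blue) Tregs (filled) and activated Tconv (open). In Tregs Penk lies at 0 in hypothalamus against 13 of 14 rest brain libraries, Foxp3 and Il2ra at 12 of 16 against 14 of 14, and Ctla4 in all libraries of both tissues.

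In the levels of genes, few differences passed in the main test over all libraries, and the number depended on which genes were tested. Of 7247 genes that exceeded 10 counts in 14 or more libraries, edgeR called 0 higher (0.00%) and 2 lower (0.0276%) in hypothalamic Tregs at an adjusted p below 0.05, with 217 genes at an unadjusted p below 0.05. Counts differed between tools: DESeq2's Wald test called 226 genes higher and 147 lower, and limma-voom with quality weights 20 higher and 2701 lower. The count minimum leaves out genes such as Penk. With more than 10 counts in at least 4 libraries, edgeR called 3 higher and 322 lower of 10853 genes. With more than 10 counts in total it called 57 higher and 626 lower of 14995. The 2 genes called in the main test were Zrsr1, a splicing factor gene, and Txnl4b. Zrsr1 was detected in 1 of 16 hypothalamic libraries and 13 of 14 rest brain libraries, where its median was 11.8 CPM (log2 fold change -8.14, SE 1.40, adjusted p = 0.0043). Txnl4b was detected in 1 and 13 libraries, with a rest brain median of 2.64 CPM (log2 fold change -6.38, SE 1.08, adjusted p = 0.0043). For genes near 0 in hypothalamus these fitted values are no bounds.

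When the 2 libraries were left out, 3 genes passed, 1 of them Txnl4b (adjusted p = 0.0145), and Zrsr1 no longer met the count minimum. The smallest adjusted p, 0.00469, was that of Sertad3, a gene detected in 2 of 16 hypothalamic and 13 of 14 rest brain libraries that did not pass with all libraries (adjusted p = 0.566). The zinc finger gene Zfp119b, which did not pass with all libraries (log2 fold change -5.70, adjusted p = 0.11), also passed (adjusted p = 0.0484). Leaving out hypothalamic library 72_76 (C57Bl/6J, HFHS diet) left 1 call, Zrsr1 (adjusted p = 0.0196), and leaving out rest brain library 33_37 (C57Bl/6J, HFHS diet) gave 4. Other genes among the 10 smallest p-values on the lower side, none of them past the threshold in this test, were Fam214a, Nav2, Zfp942, Camkmt, Gm20300, Gne and Ppp2r3c. Of these, limma-voom called all and DESeq2 all but Gne. With more than 10 counts in at least 4 libraries, edgeR called Fam214a, Zfp942, Camkmt, Gne and Ppp2r3c. Gne, for example, encodes the first enzyme of sialic acid synthesis and was detected in 2 and 13 libraries, with a log2 fold change of -8.18 (SE 2.28, adjusted p = 0.566).

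On the higher side the smallest p-values belonged to the following genes, none past the threshold in this test: Gnas (log2 fold change 1.10, adjusted p = 0.195, called by DESeq2 at 9.1e-07 and by limma-voom at 0.000999), Rac1 (1.12, adjusted p = 0.566), Gm8580, Cebpb, Tle5, Itpripl1, Pcbp1, Rps24, Txn1 and Arf6. Cebpb, a transcription factor gene, had a log2 fold change of 2.76 (SE 0.89, adjusted p = 0.842), with 0 to 311 CPM in hypothalamus (median 94.4) and 3.42 to 41.2 CPM in rest brain (median 11.3).

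Levels were then compared over the 412 genes detected in all 30 Treg libraries, a test chosen after seeing the data, in which no gene is missing from any library. In this set edgeR called 5 genes higher (1.21%) and 0 lower in hypothalamic Tregs, with 61 at an unadjusted p below 0.05, while DESeq2 called 12 higher and 5 lower and limma-voom 6 higher and 11 lower. The 5 genes were Gnas, Rac1, Taf10, Tle5 and Pcbp1, and DESeq2 and limma-voom called all of them too. In the 28 libraries kept, 8 of 528 genes passed, among them the same 5.

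Gnas (chr2:174284320-174346744, GRCm38), which encodes the stimulatory G protein alpha subunit that couples receptors to cyclic AMP, ranged from 383 to 2008 CPM in hypothalamus (median 1156) and from 328 to 851 CPM in rest brain (median 520). In 11 of 16 hypothalamic libraries it lay above the highest rest brain value (log2 fold change 1.05, SE 0.23, adjusted p = 0.0112). Rac1 (chr5:143505481-143528031, GRCm38), a small GTPase that directs the actin cytoskeleton, ranged from 159 to 1039 CPM in hypothalamus (median 594) and from 189 to 744 CPM in rest brain (median 265). It exceeded the rest brain median in 15 of 16 hypothalamic libraries (log2 fold change 0.99, SE 0.21, adjusted p = 0.0112). The groups of both genes overlapped at their ends.

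Taf10, a subunit of the general transcription factor TFIID, had medians of 142.5 and 60.4 CPM and was higher in hypothalamus (adjusted p = 0.0112), with 11 of 16 libraries above the highest rest brain value. Tle5, a transcriptional corepressor gene, had medians of 634 and 332 CPM and rose by 0.74 (SE 0.18, adjusted p = 0.02). The RNA-binding protein gene Pcbp1 had medians of 265 and 106 CPM and rose by 1.17 (SE 0.30, adjusted p = 0.0385), a call lost in 18 of the 30 fits that left out a library. Leaving out a library gave 4 to 7 calls. With the number of detected genes as a further term 4 genes passed, of which 1, Gnas, was among the 5. None of the 5 passed within C57Bl/6J alone or within either diet, and 1 gene passed within Balb/c alone.

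Groups within these 412 genes had small medians. The 30 cytosolic ribosome genes had a median log2 fold change of 0.13 (21 positive, 9 negative) beside 0.086 for all 412 genes, the 9 respiratory chain genes 0.28, and the 14 nuclear and broadly expressed RNAs 0.030. The 4 T cell genes had a median of -0.26, the 4 Treg identity genes -0.42 and the 7 early response genes -0.48 (1 positive, 6 negative). None of the genes of these lists passed with all libraries, and without the 2 libraries the ribosome gene Rps24 passed (0.69, adjusted p = 0.0221). Among the early response genes, Fos had a log2 fold change of -1.03 (adjusted p = 0.16), with 427 to 7531 CPM in hypothalamus (median 1213) and 1291 to 6974 CPM in rest brain (median 2530). Junb had -0.69 (adjusted p = 0.102) with medians of 942 and 1628 CPM.

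Activated Tconv served to ask whether the tissue difference of Tregs is shared by other T cells of the same tissues. The tissue effect differed between the cell types for 436 of 10845 genes (4.02%), 77 (0.710%) with a higher and 359 (3.31%) with a lower hypothalamus over rest brain ratio in Tregs than in activated Tconv (edgeR interaction over 59 libraries). Without the 2 libraries 814 genes passed, 112 higher and 702 lower, and DESeq2 called 887. The 5 smallest adjusted p-values belonged to Det1, Coil, Dyrk2, Ttc17 and Slc41a3. Each was detected in 0 or 1 of 16 hypothalamic Treg libraries, in 9 to 12 of 14 rest brain Treg libraries and in 13 to 16 of 16 hypothalamic activated Tconv libraries. Det1, for example, had medians of 0 and 9.34 CPM in hypothalamic and rest brain Tregs and of 23.3 and 11.8 CPM in activated Tconv (adjusted p = 6.8e-07).

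Of 27 early response genes tested for a tissue effect that differed by cell type, 0 had a higher and 2 a lower ratio in Tregs. Of all 10845 genes, 0.710% had a higher and 3.31% a lower ratio. No test compared this list, or those that follow, with these shares. The Fos ratio was lower in Tregs by -1.53 on the log2 scale (adjusted p = 0.0103, and 0.00667 without the 2 libraries). In 9 of 16 hypothalamic Treg libraries Fos lay below the lowest rest brain Treg library, whereas in activated Tconv Fos was higher in hypothalamus (log2 fold change 0.65, adjusted p = 0.0436). DESeq2 did not call this interaction (-0.64, adjusted p = 0.59). Junb differed by -1.25 (adjusted p = 0.0236), with a rise in hypothalamic activated Tconv (0.91, adjusted p = 0.0062).

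In the other direction, 4 of 30 cytosolic ribosome genes and 2 of 22 respiratory chain genes passed, all with a higher ratio in Tregs. Of all 10845 genes, 77 (0.710%) had a higher and 359 (3.31%) a lower ratio. Rps24 differed by 1.34 (adjusted p = 0.00964), and in activated Tconv 16 of the 30 ribosome genes were lower and 1 higher in hypothalamus, beside 636 lower (6.19%) and 615 higher (5.98%) of all 10281 genes. Rac1 differed by 1.32 (adjusted p = 0.00666), with no tissue effect past the threshold in activated Tconv (-0.21, adjusted p = 0.243). The Gnas difference was 0.74 and did not pass (adjusted p = 0.162), and in activated Tconv Gnas was higher in hypothalamus (0.39, adjusted p = 0.0357). Of the Th1 and cytotoxic genes 0 were higher and 3 of 17 lower, among them Gzmb (adjusted p = 0.0287), which rose in hypothalamic activated Tconv (1.69, adjusted p = 0.0394). Adora2a (adjusted p = 0.00658), Foxo3 (adjusted p = 0.00172) and Oasl1 (adjusted p = 0.00429) had lower ratios in Tregs as well. Of other-cell genes, 3 of 6 microglia genes and 2 of 2 mural cell and fibroblast genes had a higher ratio in Tregs with all libraries included. So had 3 of 16 nuclear and broadly expressed RNAs, with 1 lower, and 2 of 18 cytokines, with 1 lower.

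Whether the tissue difference depended on strain or diet was tested by interaction terms. For strain, edgeR called 0 genes, with 211 at an unadjusted p below 0.05, and DESeq2 called 110. For diet, edgeR called 0 genes, with 198 at an unadjusted p below 0.05, and DESeq2 called 78. Without the 2 libraries, edgeR called 0 genes for strain and 31 for diet, 30 higher and 1 lower.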

How the data were processed

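Bulk RNA-sequencing of sorted Tregs (30 libraries) and activated Tconv (29 libraries) was analysed. The authors prepared libraries with a SMARTer kit, sequenced 100 bp paired-end reads, ran nf-core/rnaseq on mm10 and deposited Salmon estimated counts and TPM per transcript for each sample, and the submitters' processing notes also list BWA and HTSeq. Of 35034 transcript names, 34850 (99.5%) were matched to genes, 34652 through RefSeq GRCm38.p6 and 198 through GENCODE M21. Unmatched names held 0.144% to 0.819% of counts. The deposited estimated counts were summed per gene and rounded; TPM was not used for tests. Strand was not used in naming genes, and overlapping or near-identical genes, such as Gm4832, Gm8580, ribosomal genes and their pseudogenes, may share counts. The transcript list of a gene may differ from the current annotation.

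CPM are counts scaled to the library total. Levels were tested with edgeR 4.0.16 (TMM, quasi-likelihood, strain + diet + tissue) on genes that exceeded 10 counts in 14 or more libraries, with DESeq2 1.42.0 and limma 3.58.1 as alternatives (R 4.3.3). Detection (more than 10 counts) was tested with Fisher's exact test (scipy 1.17.1, Python 3.11.15, pandas 2.3.3, numpy 2.4.6) on genes detected in 3 to 27 libraries, and genes detected per library with 100000 permutations within strain and diet. All p-values across genes were Benjamini-Hochberg adjusted, threshold 0.05, over all genes tested. The tests were checked on simulated data, with no outcome reported here. Figures were drawn with matplotlib 3.10.9.

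Members and the 36 gene lists (558 genes, 555 found) were chosen with earlier results of these data known. Genes named are those past the threshold or, where fewer than 10 passed in a direction, the smallest p up to 10; list members past either test; 6 sort genes; up to 5 genes per interaction; and the most abundant member of each list of other cells. The core genes (412 detected in all 30 libraries), the lists' genes past an interaction and those said to be so were chosen after their values were seen. Log2 values are given to 2 decimals and others to 3 significant digits. Alternatives covered scaling, filter, tool, thinning, blocks, subsets and leaving out libraries. Counts give no cell number, and precision is limited by counting error and by amplification, which was not measured here.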

Additional observations from a re-analysis of the deposited data

Results flagged for a closer look

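Within groups of the same tissue, strain and diet, 110 combinations of group and quantity were examined for a library far from the others. Of these, 14 stood out. Chance flags about 1 in 20 groups where values are normally distributed, which was not checked here. That rate does not hold where most values are 0, as for Penk in hypothalamus, so it is no measure for the 14. Total counts were 38482277 in hypothalamic library 11_14 (Balb/c, HFHS diet), the highest of its group. Foxp3 was at 299 CPM in rest brain library 15_21 (Balb/c, HFHS diet), below 386 to 398 CPM in the others of its group. Il2ra was at 18.3 CPM in hypothalamic library 37_41 (Balb/c, standard diet), against 0 to 0.0977 CPM in the others. Ikzf2 was at 1144 CPM and Cd4 at 249 CPM in rest brain library 11_15 (C57Bl/6J, standard diet), against 356 to 459 and 106 to 112 CPM in the others. Cd4 was at 253 CPM in hypothalamic library 62_66 (C57Bl/6J, standard diet), against 3.48 to 26 CPM, and at 465.6 CPM in hypothalamic library 15_21 (Balb/c, HFHS diet), against 292 to 317 CPM. Penk was at 159 CPM in rest brain library 77_80 (C57Bl/6J, HFHS diet), against 0 to 16.7 CPM. In hypothalamic library 11_14 (Balb/c, HFHS diet) Penk was at 0.026 CPM, against 0 in the others. Treg identity genes summed to 11858 CPM in rest brain library 38_42 (C57Bl/6J, HFHS diet), against 9341 to 9476 CPM. Microglia genes summed to 729 CPM in hypothalamic library 06_10 (C57Bl/6J, HFHS diet), against 0.0567 to 95.1 CPM, and to 32302 CPM in hypothalamic library 32_36 (Balb/c, standard diet), against 214 to 496 CPM. Endothelial genes summed to 168 CPM in rest brain library 62_66 (C57Bl/6J, standard diet), against 12.8 to 34.7 CPM, and to 11439 CPM in hypothalamic library 11_15 (C57Bl/6J, standard diet), against 0.137 to 75.5 CPM.

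The tissue effect differed between Tregs and activated Tconv by a test of the difference itself for 436 genes. The 5 genes with the smallest adjusted p-values had fitted log2 differences of -11.29 (Det1), -10.80 (Coil), -10.03 (Dyrk2), -9.22 (Ttc17) and -11.49 (Slc41a3), which are no bounds because the genes were at or near 0 in hypothalamic Tregs.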

How the results depend on the processing

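The lower number of genes detected in hypothalamic Tregs kept its direction and its side of the threshold in every alternative run, from -3915.3 to -3396.2 genes with each library left out, at -3632.9 with at least 1 count, at -3362.4 with more than 50 counts and at -3447.7 without the 4 libraries of low Foxp3. Alternatives without the 2 or the 4 libraries, the thinned counts and sign test of detection, and every result over the 412 genes were chosen after seeing the data. Genes less or more often detected numbered 1938 with at least 1 count, 1962 without the 2 libraries, 1492 without the 4 libraries and 2163 to 3801 with each library left out.

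The count of level differences moved most. Against 2 calls, edgeR made 325 with more than 10 counts in at least 4 libraries, 683 with more than 10 counts in total, 1 with detected genes as a term, 4 without the 4 libraries of each tissue with the fewest genes, 69 in Balb/c alone, 0 in C57Bl/6J alone, 0 on standard diet alone, 34 on HFHS diet alone, 28 without the 4 libraries of low Foxp3, and 1 to 4 with each library left out. Zrsr1 lost its call without the libraries of fewest genes (adjusted p = 0.148), in C57Bl/6J alone and on standard diet alone (1 in both), and Txnl4b with detected genes as a term (-2.74, adjusted p = 1), in C57Bl/6J alone (1) and on HFHS diet alone (0.061). At an unadjusted p below 0.05, C57Bl/6J alone gave 134 and standard diet alone 154 genes. DESeq2 made 373 calls and limma-voom 2721. Over the 412 genes, against 5 calls, DESeq2 and limma-voom made 17 each, and edgeR 4 with detected genes as a term, of which 1, Gnas, was among the 5, 8 without the 2 libraries, 15 without the 4, 1 in Balb/c alone, 0 in C57Bl/6J alone, 0 on either diet alone, and 4 to 7 with each library left out. DESeq2 made 110 calls for the strain, 78 for the diet and 887 for the cell type interaction, and without the 2 libraries edgeR made 31 for diet and 814 for cell type. More permissive filters test more genes and subsets hold fewer libraries; beyond that the cause was not tested.

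Same-numbered libraries of both tissues (10 pools) were examined for pairing. Correlations of their deviations ran from -0.0592 to 0.00922, and 1 of 10 hypothalamic libraries correlated best with its own number. This check cannot decide whether same-numbered libraries share mice. Hypothalamic libraries of a group were themselves little alike (median Spearman correlation 0.136), which would hide a shared pool. The main tests used no pairs, as the methods name none, and would ignore a pairing if there was one. With the pool as a block term edgeR made 10 calls, 1 of them shared with the 2, and over the same paired libraries without the block it made 2, of which 0 were shared. Over the 412 genes it made 0 calls with the block and 0 without. The pool as a random block effect was fitted with limma-voom, which made 2895 calls beside the 2721 of limma-voom without it, and 9 beside 17 over the 412 genes. The exact sign test of detection over pools gave 0 genes, with 889 at an unadjusted p below 0.05. With 10 pools, the smallest p this test can give is large beside an adjustment over 10502 genes. A call would need many genes to differ the same way in nearly all pools, so the 0 decides little. The block difference in genes detected was -3208.3 (exact sign-flip test, p = 0.0156).

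Signs of sort genes depended on scaling. With DESeq2's size factors the log2 fold changes were 0.0051 for Foxp3, 0.45 for Il2ra, 2.31 for Ikzf2, 0.12 for Ctla4, 1.29 for Cd3e and 1.43 for Cd4, and DESeq2's test gave 0.00553 for Foxp3, 0.12 for Ctla4 and 1.43 for Cd4. Cd4 was at 0.092 without the libraries with the fewest genes, 0.041 without the 4 of low Foxp3, 0.0093 in C57Bl/6J alone and 0.59 on HFHS diet, Il2ra at 0.46 and 0.55 in these last settings, Ikzf2 at 0.017 on HFHS diet, and Rps24 at -0.15 with detected genes as a term. With each library left out Cd4 ranged from -0.48 to 0.087 and Ikzf2 from -0.79 to 0.026. In limma-voom Foxp3 (-2.22), Ctla4 (-1.13) and Cd3e (-0.54) passed, and with the pool as a random block effect Foxp3 (-2.24, adjusted p = 0.0273), Ikzf2 (-2.70, adjusted p = 0.0336) and Ctla4 (-1.05, adjusted p = 0.0385). The median log2 fold change of all genes was -2.79 in the first and -3.00 in the second of these fits, below those of the genes named. Of the other settings for single genes, leave-outs aside, 345 kept side and direction in the levels of all genes, 68 gained and 8 lost a call, 36 did and 34 lost the call over the 412 genes, and 162 did and 170 lost it in detection. Depth limits what a missing gene shows: it was not detectable, which is not absence.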
